A study of Mus musculus with 67 samples.

Results

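The step from neuromesodermal progenitors (NMPs) to p3 neural progenitors (NPs) was followed by comparing chromatin accessibility in day 3 NMPs with that in day 4 p3 NPs. The members were chosen by their labels: 3 NMP samples from day 3, and 5 p3 samples from day 4, of which 3 had received 100 nM and 2 had received 500 nM of the Smoothened agonist SAG. They made up 8 of the 67 samples and 3 of the 25 groups of the series. The series followed mouse embryonic stem cells of the HM1 line through ventral neural differentiation under 4 concentrations of SAG. At each day cells were fixed, transposed with Tn5, stained with antibodies and sorted by flow cytometry before their accessible DNA was sequenced. The values were variance-stabilized (VST) counts over a shared set of elements, from which normalized counts were recovered. Replicates were independent differentiations.

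NMPs came from cells kept in bFGF and LGK from day 0 to day 2, then in bFGF, CHIR99021, SB-431542 and DMH1 to day 3, with no SAG and no retinoic acid (RA). The p3 cells had a further day in 100 nM RA with 100 or 500 nM SAG, and were sorted as positive for SOX2 and NKX2.2 and negative for OLIG2. Day, medium, RA, SAG and cell type changed together between these groups and cannot be told apart. Cells of 1 line were used throughout, so the values describe that line in culture. The label of pMN used below for a comparison at day 4 stands for NPs that were positive for OLIG2, grown in the same media.

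NMPs in the caudal embryo can form both spinal cord and paraxial mesoderm, and Wnt and FGF signals keep them in that state. RA from the somites and Sonic hedgehog from the notochord and floor plate then pattern the neural tube, where p3 is the most ventral progenitor domain beside the floor plate. Accessible chromatin marks the elements through which these signals and the factors they induce can act.

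Each NMP sample held between 16809239 and 19271426 reads in elements. For the p3 samples at 100 nM these were 9298160, 9577692 and 13974633 reads, and for those at 500 nM 16667003 and 23973955. The p3 samples at 100 nM lay below all NMP samples in depth, and those at 500 nM lay on either side of them. After the authors' size factors the NMP samples summed to 20.8 to 22.7 M normalized counts and the p3 samples to 16.9 to 18.8 M, so totals did not overlap. Replicates of a group correlated at r of 0.940 to 0.972 over the VST values of elements that averaged more than 100 counts in it. Below, sample values are normalized counts in the order replicates 1, 2 and 3 of NMP, then replicates 1, 2 and 3 of p3 at 100 nM and replicates 1 and 3 of p3 at 500 nM, and group values are means ± SD. Replicates are numbered by sample titles, and the last of these samples is number 2 in its description. Log2 fold changes are of p3 over NMP, or over the group named, and were taken from mean counts with 1 added. P-values came from limma on VST values and were adjusted by Benjamini-Hochberg over all tested elements.

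The labels were first held against elements beside defining genes. For each gene this was the tested element with the largest change between NMP and p3, so separation there follows in part from the choice. Other NMP genes had no element that passed the thresholds given below, such as Tbx6 (-0.57), Fgf8 (-1.53) and Nkx1-2 (-1.96). An intergenic element 2.2 kb from the transcription start site (TSS) of Cdx2 read 532, 471 and 670 in NMP and 20.2, 20.9, 25, 27.3 and 27.7 in p3. All NMP values lay above all p3 values. The promoter of Wnt8a went from 1548 ± 247 to 104 ± 12.2. At the promoter of Nkx2-2, by contrast, NMPs already had 1732, 1868 and 1739 counts against 2846, 2260, 2927, 2757 and 2740 in p3, and the groups did not overlap although the change was not called (log2 fold change 0.60, adjusted p = 5.5e-05, or 1.42 with the correction for GC content given below). Against day 4 pMN cells (1819 ± 337) the same promoter was higher in p3 by 0.57 (adjusted p = 0.0012), without passing the fold threshold given below. An element 20.1 kb from Nkx2-9 was likewise higher in p3 than in pMN, by 1.07 (adjusted p = 0.00011), and one 101.2 kb from Shh by 1.04 (adjusted p = 0.0011). The Shh element did not set p3 apart from every group, since it read 262 ± 79.1 in day 4 p0-1 without SAG and 252 ± 74.6 in p3 at 100 nM. The strongest Nkx6-1 element, given below, was lower in p3 (729 ± 256 at 100 nM, 990 ± 176 at 500 nM) than in pMN (1368 ± 158 and 1451 ± 59.5). Of 91 ventral elements tested between pMN and p3, none was called higher in p3 and 2 were called lower. Over all elements tested between these groups 0.179% were called higher and 1.07% lower, so these counts say little about the ventral genes. A p3 sample in which fewer cells opened an element and one in which each cell opened it less cannot be told apart.

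Accessibility changed at 6718 of 31146 tested elements (21.6%) between NMPs and day 4 p3. Of these, 4308 were higher in p3 (13.8% of those tested) and 2410 were lower (7.74%). An element was tested if it averaged more than 100 normalized counts over the 8 samples, which 27.9% of 111638 did, and it was called if the adjusted p was under 0.01 and the log2 fold change was beyond 2 in either direction. The median element that was higher in p3 went from 20.1 counts to 274 (median log2 fold change 3.78), while the median element that was lower went from 359 to 53.3 (-2.63). A log2 fold change above 4 was found at 1909 of the higher elements, and one below -4 at 279 of the lower ones. NMP and p3 samples did not overlap at 6714 of the called elements, against 74.6% of all tested elements. Just inside the fold threshold, 751 called elements had a log2 fold change of 2 to 2.2 in size, and just outside it 874 had one of 1.8 to 2.

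Far more elements shifted by less than the threshold. At an adjusted p under 0.01 and any fold, 22248 of the tested elements differed (71.4%), and most of these, 15998, were lower in p3. The median log2 fold change over all tested elements was -0.46. It became 0.05 when every sample was centered on its median, -0.15 when samples were scaled to their total reads in elements, and 0.01 after a correction for GC content in each sample. Centering makes the sample medians equal, and the GC correction does so within bins of GC content. The values of 0.05 and 0.01 thus follow largely from these steps. They do not show whether the shift of -0.46 was technical, which was not tested.

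The balance of opening and closing depended on the choices of scaling, correction, filter and threshold. Calls that were higher in p3 made up 64.1% as reported above, but 82.5% (5441 higher, 1153 lower) with samples centered and 75.9% (4967 and 1578) with total reads. They made up 53.2% (3530 and 3106) when the filter took the mean of the 2 group means, so that NMP and p3 counted equally. With the GC correction they made up 51.9% (3178 and 2950), and that set held 3908 of the 6718 calls (58.2%). Using p3 at 100 nM alone gave 51.9% (3248 and 3014), and p3 at 500 nM alone 44.8% (3182 and 3915). The filter averaged over the samples in each fit, so p3 weighed less against NMP in these fits, and an effect of SAG on the share cannot be told apart from that. With a log2 fold change threshold of 1, 39.8% of calls were higher in p3 (5537 and 8370). Leaving out each sample in turn moved the share between 58.5 and 72.5%. It was 70.4 to 72.5% without an NMP sample and 58.5 to 60.5% without a p3 sample, which also changes the weight of the groups in the filter. A set of 131 elements, most of them named below, was followed through the alternatives. Of these, 106 were called and could be tested again with the GC correction. At 22 of the 106 the log2 fold change became smaller by more than 1.5 times, 17 of them higher in p3 and 5 lower. The call remained at 12 of the 22.

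The largest increases started from almost no signal. They were ranked among called elements whose NMP and p3 samples did not overlap, and they passed the filter on the mean through p3. Their separation and their low NMP counts are thus tied to the choice. An intergenic element 268.3 kb from Eda2r had 0 reads in all NMP samples and 212, 326, 433, 404 and 374 counts in p3, at least 288-fold higher, with the floor set at 3 reads over the NMP group. Those 642.5 kb from Ppp1r2-ps9 and 244.3 kb from Cdh7 also had 0 NMP reads and were at least 172-fold and at least 133-fold higher. These were the 3 higher elements with 0 reads in NMP. An element in intron 8 of Sema3d had 2 reads in NMP and 222, 391, 530, 386 and 479 counts in p3, a ratio of 559 with a 95% counting interval of 155 to 4620. That interval covers counting error alone. In Fndc3b, near Mir3092, an intronic element read 7.27, 6.74 and 3.23 in NMP and 1468, 1393, 2068, 1794 and 1873 in p3 (log2 fold change 7.99, adjusted p = 2.5e-14). The lowest p3 value lay far above the highest NMP value. Next came Chmp4c (from 2.02 ± 0.752 to 668 ± 138), Nbea (from 3.19 ± 0.471 to 829 ± 154), Agpat4 (from 5.48 ± 4.17 to 1155 ± 281), Tnfrsf19 (from 10 ± 0.785 to 1834 ± 837) and Crbn (from 6.33 ± 4.51 to 1204 ± 259). The size of these changes depended on the GC correction, with which the log2 fold changes were 3.66 for Sema3d, 4.49 for Nbea, 3.26 for Tnfrsf19 and 4.55 for Crbn, against 7.87, 7.63, 7.38 and 7.36 without it. For Eda2r, where NMP had 0 reads and the fold is only a bound, it was 3.58. With VST folds, Ppp1r2-ps9 and Cdh7 had 4.98 and 4.72.

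Among the decreases the largest was at an element in intron 2 of Pdgfrl, with 542, 928 and 689 counts in NMP and 6.06, 3.79, 1.31, 7.09 and 6.75 in p3 (log2 fold change -6.91, adjusted p = 1.8e-11). Every p3 value was below 8 and every NMP value above 500. Lack of overlap was again a condition of the ranking, and the elements of this paragraph passed the filter through NMP. An intergenic element 78.8 kb from Chd6 fell from 728 ± 248 to 7.54 ± 2.65, and one 16.4 kb from the ETS factor gene Etv4 from 364 ± 136 to 3.72 ± 2.71, with 0 reads in replicate 1 of p3 at 100 nM. Elements near Naa30 (-6.22), Tenm2 (-6.13), Arf1 (-6.11), Mir146b (-6.11) and Gucy1a2 (-6.09) fell about as far. NMP replicate 1 gave the lowest NMP value at all of these elements.

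**Figure D1:**
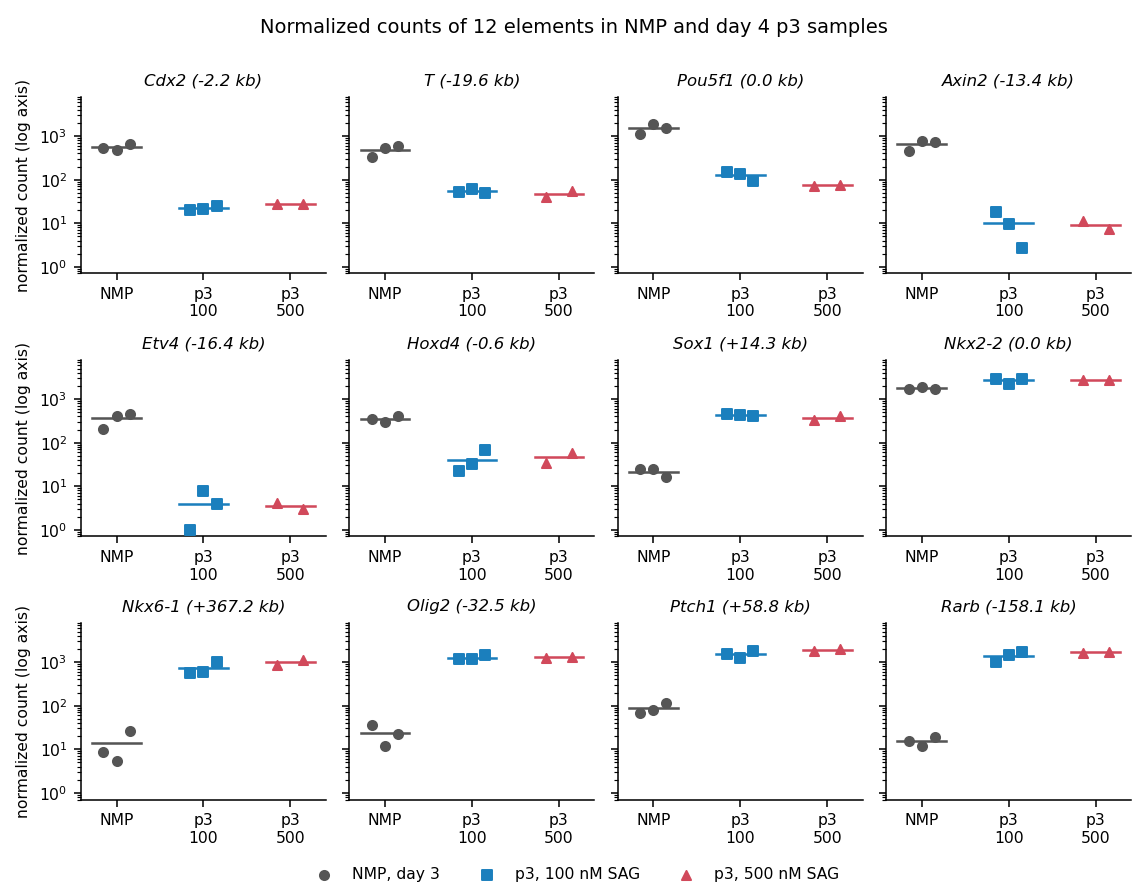
Normalized counts of 12 elements in each sample on a log axis, with lines at group means. The Etv4 value of 0 in p3 at 100 nM, replicate 1, is drawn at 1.

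Elements were then grouped by the gene with the nearest TSS into lists of known genes. Every list below is to be read against all tested elements, of which 13.8% rose and 7.74% fell. Of 62 tested elements of NMP and early mesoderm genes, 20 fell (32.3%, against 7.74% of all tested elements), 4 rose (6.45%, against 13.8%) and 38 were not called. Their median log2 fold change was -1.21, against -0.46 over all tested elements. With centered samples 12 fell and 4 rose. The strongest decrease lay 8.7 kb from Grsf1, where 590, 947 and 1032 counts in NMP became 18.2, 9.48, 10.5, 20.2 and 16.5 in p3 (log2 fold change -5.75). There was no overlap, with NMP replicate 1 the lowest of its group. Near Sp5 the value fell from 432 ± 140 to 23 ± 6.25 (log2 fold change -4.18, or -7.33 with the GC correction), at the Wnt8a promoter from 1548 ± 247 to 104 ± 12.2, 91.0 kb from Foxb1 from 2535 ± 473 to 206 ± 31.2 and near Evx1 from 722 ± 126 to 67.7 ± 18.1. An element 19.6 kb from T (brachyury), inside T2, read 331, 546 and 594 in NMP and 52.5, 62.6, 50, 39.5 and 54 in p3 (log2 fold change -3.22, adjusted p = 9.3e-10). All p3 values lay below all NMP values. The T promoter fell less, from 1175 ± 113 to 248 ± 65 (log2 fold change -2.24), and that call was lost with centered samples, total reads or the GC correction. The same held for the call in intron 1 of Wnt3a (-2.30), except that total reads kept it.

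Other elements of these genes opened or were not called. An intergenic element 3.0 kb from Dll1 rose from 30.6 ± 8.57 to 446 ± 71 (log2 fold change 3.82, adjusted p = 2.4e-11). Of 6 tested elements of Foxb1 2 rose and 1 fell, and of 7 of Sall4 1 rose and 1 fell. Elements of Lfng (0.89), the Tbx6 promoter (-0.57) and Fgf8 (-1.53) were not called, and their values with the GC correction were 1.67, 0.22 and -0.87. In intron 1 of Nkx1-2 the values were 1295, 1655 and 1525 in NMP and 426, 389, 419, 309 and 367 in p3. These did not overlap, and the log2 fold change of -1.96 missed the fold threshold. It passed it with p3 at 500 nM alone, without NMP replicate 1 or without replicate 1 of p3 at 100 nM, and was -1.15 with the GC correction.

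Of the 5 tested elements of Cdx factors, 3 fell (60%) and 2 were not called, with a median log2 fold change of -2.54. In intron 1 of Cdx1 the counts were 2171, 2267 and 2449 in NMP and 117, 127, 122, 101 and 120 in p3 (log2 fold change -4.28, SE of the VST difference 0.12, adjusted p = 6.9e-14). The ranges did not overlap. The Cdx2 element above had a log2 fold change of -4.47 (SE 0.20, adjusted p = 1.7e-11). Its level in other day 4 groups was 71.5 ± 28.7 in pMN at 100 nM, 48.8 ± 13.3 in p2 at 100 nM and 36.7 ± 22.1 in p0-1 without SAG, and by day 5 it was 6.26 ± 1.72 in p3 at 100 nM.

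Pluripotency genes had 46 tested elements, of which 10 fell (21.7%), 1 rose (2.17%) and 35 were not called, with a median of -1.04. With centered samples 6 fell, with total reads 7 and with the GC correction 11, each with 1 that rose, and weighing the groups equally in the filter gave 14 lower and 0 higher. The largest decrease was 27.8 kb from Tfap2c, from 829 ± 153 to 12.7 ± 3.83 (log2 fold change -5.92), followed by an element 26.6 kb from Klf5, from 675 ± 134 to 37.6 ± 17.6. The promoter of Pou5f1 had 1108, 1898 and 1532 counts in NMP and 149, 133, 93.3, 71.9 and 76.5 in p3 (log2 fold change -3.84, adjusted p = 1.2e-10). NMP values were spread from 1108 to 1898 and all lay above p3. An element in exon 2 of Utf1 fell from 1268 ± 230 to 216 ± 35.6, a call that was lost with the GC correction (-1.90). The 1 element that rose lay 149.2 kb from Klf4, from 6.6 ± 3.38 to 191 ± 59.9. In intron 4 of Lin28b the counts were 35.2, 28.3 and 91.5 in NMP and 86.8, 114, 156, 201 and 162 in p3. These overlapped, and the increase of 1.46 was not called. It was called without NMP replicate 3 (2.15), and with the GC correction its sign was the opposite.

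Of 114 tested elements of pan-neural progenitor genes 38 rose (33.3%), 5 fell (4.39%) and 71 were not called, with a median log2 fold change of 0.42. With centered samples 51 rose and 3 fell, and with the GC correction 24 rose and 9 fell of 111. The strongest increase was at an intergenic element 737.6 kb from Nr2f1, with 13.3, 4.05 and 8.62 counts in NMP and 757, 859, 1265, 1233 and 1053 in p3 (log2 fold change 6.74, adjusted p = 3e-13). The groups were apart, and p3 at 100 nM held the 2 lowest p3 values. Elements at 515.4 kb from Cdh2 and 481.4 kb from Nr2f2 rose from 6.47 ± 3.63 to 757 ± 179 and from 12.3 ± 2.46 to 768 ± 119. In Sox5 and Sox6, intronic elements rose from 11.3 ± 0.754 to 711 ± 155 and from 9.43 ± 3.05 to 351 ± 120, and all 7 tested elements of Sox6 were called higher. Near Sox1, an element in Sox1ot read 24.2, 24.3 and 16.2 in NMP and 452, 427, 408, 337 and 409 in p3 (log2 fold change 4.18). An element 29.6 kb from Sox2 read 23, 18.9 and 30.2 in NMP and 305, 265, 518, 389 and 526 in p3 (log2 fold change 4.0). The log2 fold changes of Nr2f1, Cdh2 and Sox5 were 4.02, 3.09 and 2.48 with the GC correction, against 6.74, 6.67 and 5.86 without it. Neither the Sox1 nor the Sox2 values overlapped, but Sox2 and Sox6 were no longer called with the GC correction (log2 fold changes 1.58 and 1.60).

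At Pax6, an element in intron 7 was already open in NMPs, at 829, 828 and 635 counts, and reached 1665, 1621, 1554, 1427 and 1397 in p3. The p3 values lay above the NMP values, and the change of 1.0 was not called (adjusted p = 6.3e-07). Elements that fell lay 289.0 kb from Zfp521 (from 236 ± 20.8 to 21.4 ± 9.78) and in intron 1 of Ncam1, where NMP values were 119, 97.1 and 395 and p3 values 28.3, 30.3, 51.3, 26.3 and 79.5. The lowest NMP value was close to the highest p3 value, and Ncam1 was not called when the fold was taken from VST means or with p3 at 500 nM alone.

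Ventral genes of p3 and floor plate had 93 tested elements, of which 33 rose (35.5%), 7 fell (7.53%) and 53 were not called. With centered samples 40 rose and 4 fell, and with the GC correction 28 and 7. Their median log2 fold change was 0.16, and -0.01 when both groups weighed equally in the filter. The element near Nkx2-9 read 6.06, 2.7 and 2.15 in NMP and 402, 468, 451, 499 and 370 in p3 (log2 fold change 6.56, SE 0.19, adjusted p = 6e-13). It was the strongest of the list, and the values of the SAG concentrations overlapped. It was lower than this in other day 4 groups, at 162 ± 23.9 in pMN and 132 ± 3.75 in p2, both at 100 nM. It was also lower than in day 4 p3 in later p3, at 167 ± 9.58 on day 5 and 45.4 ± 26.8 on day 6 (100 nM). Near Nkx6-1, 10 of 15 tested elements rose. The strongest, 367.2 kb from the TSS, read 8.49, 5.4 and 26.9 in NMP and 559, 605, 1024, 866 and 1115 in p3 (log2 fold change 5.84). Every p3 value was above every NMP value, with a spread of 559 to 1115. An element in Inpp5a near Nkx6-2 rose from 24.4 ± 16 to 952 ± 65, and one in Glis3 near Rfx3 from 3.23 ± 1.42 to 278 ± 31.7 (log2 fold change 6.04, or 3.59 with the GC correction).

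Among forkhead genes, Foxa2 had 4 of 10 tested elements higher and 1 lower, and Foxa1 had 1 of 6 higher. An intergenic element 78.2 kb from Foxa2 read 43.6, 41.8 and 70 in NMP and 1312, 1249, 1679, 1391 and 1640 in p3 (log2 fold change 4.78, adjusted p = 2.6e-13). It did not overlap, and an element in Mipol1 near Foxa1 went from 11.4 ± 5.61 to 236 ± 104. Near Shh, an element 101.2 kb away rose from 17.2 ± 6.31 to 281 ± 72.6. The gene that names the p3 fate in the sort, Nkx2-2, was not called at its promoter (log2 fold change 0.60, SE 0.10). Elements near Ntn1 (from 255 ± 97 to 24.6 ± 6.8), in Sulf1 (from 476 ± 86.1 to 47.4 ± 10.9) and in Lmx1b (from 721 ± 150 to 103 ± 23.6) fell. Of 6 tested elements of Ntn1 1 rose and 1 fell, and of 5 of Sulf1 2 rose and 2 fell.

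Genes of intermediate and dorsal domains had 13 of 88 tested elements higher (14.8%), 6 lower (6.82%) and 69 not called, and a median of -0.65. These shares were close to those over all tested elements, 13.8 and 7.74%. Weighing the groups equally in the filter gave 10 higher and 10 lower, centered samples 17 and 1, total reads 14 and 4, and the GC correction 12 and 8. The strongest increase, 52.5 kb from Irx3, went from 5.21 ± 3.9 to 528 ± 102 (log2 fold change 6.41), and an element near Irx1 from 1.93 ± 1.83 to 201 ± 26.4. An intergenic element 32.5 kb from Olig2 read 35.2, 12.1 and 22.6 in NMP and 1187, 1177, 1469, 1277 and 1311 in p3 (log2 fold change 5.72, adjusted p = 2.6e-13). No p3 value was below 1177, in cells sorted as negative for OLIG2. At day 4 this element also read 3195 ± 61 in pMN and 1853 ± 194 in p2, both at 100 nM, and 1324 ± 162 in p0-1 without SAG. Elements near Dbx2 (from 5.12 ± 4.23 to 186 ± 31.6) and Olig1 (from 11.4 ± 5.36 to 291 ± 55.2) rose too. Those near Olig3 fell from 219 ± 66.3 to 34.2 ± 9.45, near Pax7 from 252 ± 38.1 to 48.1 ± 7.02 and in Pax3 from 223 ± 80.1 to 51.7 ± 14.4. The Pax7 and Pax3 calls were lost with centered samples and with the GC correction, and Pax3 also with total reads, VST folds, p3 at 100 nM alone or without replicate 1 of p3 at 500 nM.

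In the Hedgehog pathway 19 of 52 tested elements rose (36.5%), 5 fell (9.62%) and 28 were not called. With centered samples 24 rose and 2 fell, and with the GC correction 15 and 6. The median log2 fold change was 0.67, or -0.04 with both groups weighing equally in the filter. An intergenic element 195.7 kb from Hhip had 2.42, 0 and 2.15 counts in NMP and 72.7, 114, 158, 236 and 218 in p3 (log2 fold change 5.99, adjusted p = 2.2e-08). The values at 500 nM lay above those at 100 nM. That difference was not called between SAG concentrations. Near Ptch1, 8 of 10 tested elements rose. The strongest lay 58.8 kb from the TSS, with 67.9, 78.2 and 116 counts in NMP and 1502, 1238, 1818, 1825 and 1990 in p3 (log2 fold change 4.24, SE 0.17, adjusted p = 2.1e-12). No values overlapped, and the log2 fold change was 2.66 with the GC correction. Intronic elements of Scube1 and Scube2 rose from 20.8 ± 5.06 to 617 ± 144 and from 17.1 ± 3.77 to 335 ± 21.8.

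Some Hedgehog genes lost elements. Near Gli3 an element 68.4 kb upstream fell from 374 ± 50.4 to 20.7 ± 6.24 (log2 fold change -4.11), and near Boc one fell from 918 ± 337 to 54.7 ± 10.2. An element near Gli2 (-2.37) also fell, a call that was lost with centered samples or the GC correction. Both Gli genes gained elements too. Of 6 tested elements of Gli3 2 rose and 1 fell, and of 6 of Gli2 1 rose and 2 fell. In intron 2 of Gli1 the counts were 1665, 1744 and 1756 in NMP and 3363, 2923, 2990, 2539 and 2851 in p3. That element was open in both groups without overlap, and its change of 0.77 was not called (adjusted p = 3.3e-06), nor was the 1.53 found with the GC correction.

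RA pathway genes had 93 tested elements, with 26 higher (28%), 5 lower (5.38%) and 62 not called. The median log2 fold change of -0.09 turned to 0.61 with centered samples, 0.33 with total reads and 0.40 with the GC correction. The 5 lower elements became 0 with centered samples and 1 with total reads or the GC correction, while the higher ones became 32, 30 and 22. The strongest element lay in intron 2 of Rarb, 158.1 kb from the annotated TSS, and read 15.8, 12.1 and 19.4 in NMP and 1007, 1448, 1729, 1664 and 1687 in p3 (log2 fold change 6.49, SE 0.17, adjusted p = 7.2e-14). The p3 values began above 1000 and the NMP values ended below 20. An element in intron 8 of Meis2 rose from 6.91 ± 4.82 to 393 ± 79.2 (log2 fold change 5.64, or 2.86 with the GC correction), and near Meis1 8 of 14 tested elements rose, the strongest from 15.6 ± 7.89 to 491 ± 31.6. An intergenic element 5.0 kb from Crabp1 rose from 15.7 ± 0.559 to 786 ± 97.1. It was higher in p3 than in pMN (397 ± 25.8) by 0.99 (adjusted p = 1.5e-06), without passing the fold threshold. Between pMN and p3, where 1.25% of all tested elements were called, 1 of 97 RA pathway elements was called, in intron 8 of Meis1. That element was lower in p3, at 46.2 ± 11.4 against 195 ± 27.7 in pMN (log2 fold change -2.05). Near Dhrs3 an element in Vps13d read 162, 146 and 478 in NMP and 6.06, 1.9, 7.89, 4.05 and 6.75 in p3 (log2 fold change -5.38). NMP replicate 3 was highest and no p3 value exceeded 8. An element near Rara (-2.15) fell, but was not called with centered samples, total reads or the GC correction. Exon 2 of Cyp26a1 went from 417 ± 40.6 to 190 ± 36.3, which was not called (log2 fold change -1.13, or -0.64 with the GC correction).

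FGF and ERK pathway genes split almost evenly, with 18 of 85 tested elements higher (21.2%), 16 lower (18.8%), 51 not called and a median of -0.46, the same as over all tested elements. With centered samples 20 were higher and 6 lower, and with both groups weighing equally in the filter 17 and 19. The Etv4 element read 208, 419 and 463 in NMP and 0, 7.58, 3.94, 4.05 and 3 in p3 (log2 fold change -6.27, adjusted p = 5.3e-09). The highest p3 value was 7.58. Elements near Spry4 (from 406 ± 85.9 to 15.3 ± 4.57), Spry2 (from 250 ± 79.4 to 11.1 ± 5.53) and Egr1 (from 221 ± 21.1 to 32.1 ± 5.03) fell as well. On the other side, an element 392.7 kb from Spred2 read 20.6, 13.5 and 8.62 in NMP and 967, 1103, 872, 1104 and 828 in p3 (log2 fold change 6.00). The 2 groups were apart. Elements of Fgfr2, Fgf3 and Etv5 rose, from 5.93 ± 3.18 to 293 ± 78.2, from 14.4 ± 1.19 to 606 ± 195 and from 11.7 ± 2.54 to 369 ± 121.

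Wnt pathway genes had 24 of 84 tested elements lower (28.6%), 10 higher (11.9%), 50 not called and a median of -1.15. With centered samples 16 were lower and 12 higher, and with total reads 20 and 11. In intron 1 of Znrf3 an element read 558, 1006 and 844 in NMP and 12.1, 19, 6.57, 11.1 and 12 in p3 (log2 fold change -5.93, adjusted p = 1.2e-11). An intergenic element 13.4 kb from Axin2 read 461, 757 and 731 in NMP and 18.2, 9.48, 2.63, 11.1 and 7.5 in p3 (log2 fold change -5.91, SE 0.29). At both, every p3 value was below 20 and NMP replicate 1 was the lowest in its group. Near Nkd1 an element fell from 843 ± 179 to 32.7 ± 6.16, near Lef1 from 460 ± 125 to 49.7 ± 14.3, and all 5 tested elements of Sp5 were called lower. Of 6 tested elements of Wnt5a 2 rose, with a gene median of -0.46, and of 4 of Wnt5b 2 rose. The strongest of each went from 7.45 ± 3.02 to 313 ± 62 and from 18.1 ± 7.05 to 350 ± 70.4. The Wnt5a call was lost with the GC correction (1.70). Intronic elements of Tcf7l1 and Tcf7l2 rose from 30.8 ± 2.24 to 1107 ± 200 and from 24.2 ± 8.46 to 295 ± 52.2.

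In the BMP and TGF-beta pathway 6 of 60 tested elements fell (10%), 2 rose (3.33%) and 52 were not called, with a median of -0.31. The lower share was near the 7.74% over all tested elements, where 13.8% rose and the median was -0.46. The order of the counts turned to 8 higher and 2 lower with centered samples, and to 8 higher and 3 lower with the GC correction, but was 4 higher and 5 lower with total reads. An element 11.8 kb from Nodal read 192, 371 and 403 in NMP and 14.1, 5.69, 7.89, 9.11 and 7.5 in p3 (log2 fold change -5.03). These did not overlap. Elements near Fst (from 288 ± 176 to 11.9 ± 5.69) and Id3 (from 556 ± 98.9 to 64.5 ± 10.9) also fell. An element beside Chrd, in the promoter of Thpo, fell from 241 ± 18.3 to 32.2 ± 8.45. The 2 that rose lay in introns of Smad6 (from 25.1 ± 12.2 to 503 ± 122) and Smad7 (from 73.1 ± 19.5 to 568 ± 111).

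**Figure D2:**
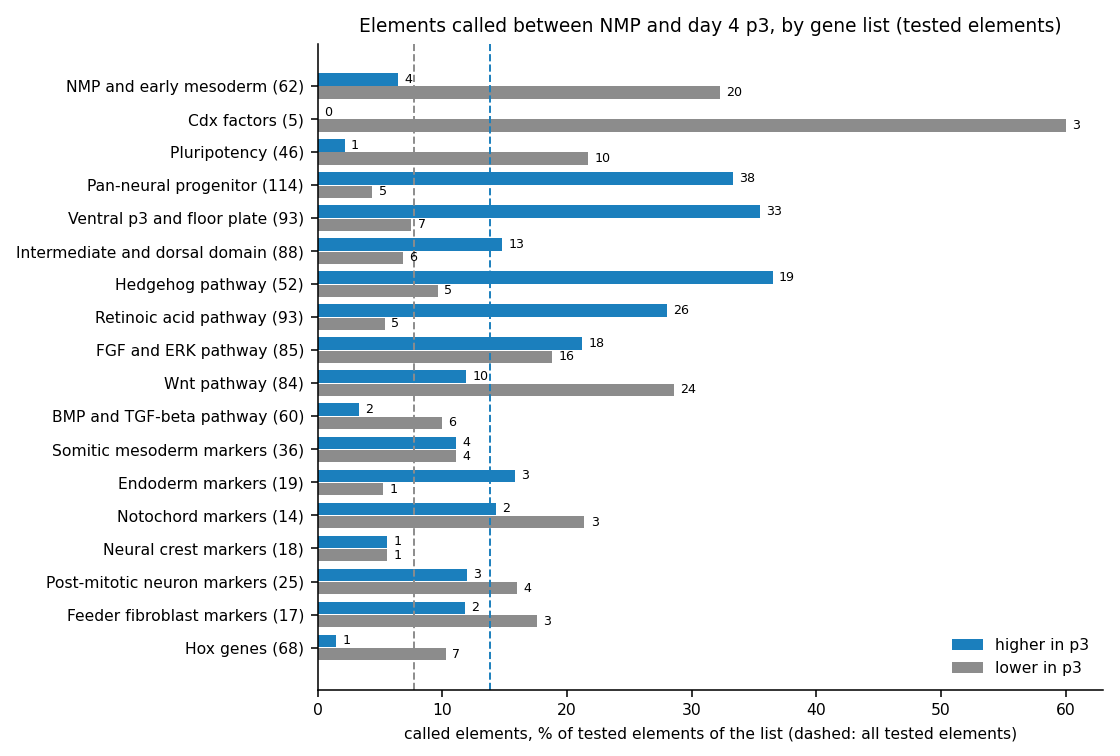
Share of tested elements in each gene list called higher or lower in p3, with counts beside the bars. Dashed lines mark the shares over all tested elements, 13.8 and 7.74%.

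Few elements of Hox genes were called. Of 68 tested elements 7 fell (10.3%), 1 rose (1.47%) and 60 were not called, with a median of -0.84 against -0.46 over all tested elements. With centered samples these medians were -0.36 and 0.05, and with the GC correction 4 elements fell and 3 rose. At an adjusted p under 0.01 and any fold, 51.4% of all tested elements were lower and 20.1% higher. By the same measure 18 of 21 tested elements within the Hoxb cluster were lower and none was higher, with a median of -1.16. For Hoxc these were 17 of 18, with a median of -1.07, while Hoxa had 14 lower and 3 higher of 21 (median -0.75). Hoxd, with 10 lower and 4 higher of 20 (median -0.52), was near the shares over all tested elements.

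An element annotated as the promoter of Hoxd4, which also lies within the RefSeq span of Hoxd3, read 355, 293 and 407 in NMP and 22.2, 32.2, 67, 34.4 and 59.2 in p3 (log2 fold change -3.0, adjusted p = 3.6e-08). No p3 value reached 70. The tested element on the body of Hoxd4 did not change in this way, at 388 ± 61.2 in NMP and 323 ± 54.7 in p3 (log2 fold change -0.27, adjusted p = 0.12). Elements of Hoxc11 (from 225 ± 8.83 to 36.3 ± 11) and Hoxb9 (from 2066 ± 200 to 353 ± 60.9) fell, as did one 31.8 kb from Hoxb1 (from 296 ± 32 to 67.3 ± 15.4). The Hoxb9 call was lost with the GC correction, and the Hoxb1 call with centered samples, total reads, VST folds or the GC correction. Elements in Hoxb4 (-1.44) and Hoxa9 (-0.81) were not called, and had -0.68 and -0.02 with the GC correction. The 1 increase was at an element 31.3 kb from Hoxc4, from 12.8 ± 2.76 to 247 ± 34.9. The promoter of Hoxa2 went from 617, 529 and 569 to 2017, 1581, 1601, 1540 and 1569. It was higher in every p3 sample, and its change of 1.54 was not called, but it was with the GC correction (2.14).

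Genes that mark other cell types were counted in the same way. For comparison, 13.8% of all tested elements were higher and 7.74% lower, with a median of -0.46. Somitic mesoderm genes had 4 of 36 tested elements higher and 4 lower (median -0.95), and 5 higher and 3 lower with centered samples. Their summed counts were 17637, 17231 and 15096 in NMP and 11408, 11840, 11397, 9620 and 11125 in p3, with the strongest element that of Pax9. For each list here and below, the gene named with the sums is that of its single strongest element. Endoderm genes had 3 of 19 higher and 1 lower (median -0.80), with sums of 12858, 12487 and 10491 against 8053, 8698, 8000, 6424 and 7769, and Sox17 the strongest. The normalized totals over all elements were also higher in every NMP sample, but with sums divided by these totals NMP still lay above p3. Per 1 M of the total, somitic genes had 727 to 787 in NMP against 570 to 652 in p3, and endoderm genes 505 to 574 against 381 to 479. Notochord genes had 2 of 14 higher and 3 lower (median -1.0), with 1 lower when samples were centered or corrected for GC. They summed to 5714, 6191 and 5591 in NMP and 3262, 2904, 3007, 2501 and 2899 in p3, led by Chrd. Neural crest genes had 1 of 18 in each direction (median -0.69), with sums of 10194, 10532 and 9305 against 7138, 7199, 6801, 5500 and 6327, led by Sox9.

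Genes of post-mitotic neurons had 3 of 25 tested elements higher and 4 lower (median -0.99), and 4 higher and 2 lower with centered samples. These summed to 14387, 14587 and 12358 in NMP and 8713, 8838, 8902, 7573 and 8444 in p3, led by Tlx3. Feeder fibroblast genes had 2 of 17 higher and 3 lower (median -0.76), but 3 higher and 0 lower with centered samples, and summed to 8680, 8709 and 7945 against 5951, 5826, 5561, 4788 and 5358, led by Pdgfra. For the notochord, neural crest, neuron and fibroblast lists too, each NMP sum was above each p3 sum when divided by the normalized total. Myf5, Hnf4a, Dcx, Col3a1, Acta2 and Postn had no tested element. The part of these cell types in the changes was not tested.

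Single elements of these lists changed strongly. Near Foxc1 an element fell from 298 ± 98.1 to 7.93 ± 1.24 (log2 fold change -5.07) and near Ripply2 from 608 ± 244 to 21.5 ± 7.04, while an element in Slc25a21 near Pax9 rose from 10.9 ± 6.84 to 218 ± 69. Intronic elements of Elavl4 and Elavl3 rose from 6.06 ± 4.71 to 243 ± 75.8 and from 30.2 ± 8.6 to 356 ± 43.1 (Elavl4 by 5.11, or 2.96 with the GC correction), and elements near Mnx1 and Tlx3 fell from 368 ± 71.4 to 54.6 ± 11.4 and from 437 ± 86.6 to 66.4 ± 6. An element in Hdac9 near Twist1 rose by 3.38, and one near Col1a2 by 2.2, and neither was called with the GC correction (1.01 and 1.92). The Cer1 promoter rose by 2.22, again without a call after that correction (0.93). Foxj1 rose by 2.08, and was not called with VST folds, with p3 at 500 nM alone or without NMP replicate 2. Decreases at Thy1 (-2.42), Col1a1 (-2.25), Krt8 (-2.0) and Ets1 (-2.55) were all lost with the GC correction, and the first 3 with centered samples too. Krt8 lay at the fold threshold and was also lost in 5 of 8 fits that left out a sample, and Col1a1 was also lost with total reads. Sox17 (-1.69) and Sox10 (-1.65) were not called.

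Genes with many changing elements gave another view of the same calls. Most increases were found around Mir218-2 and Nkx6-1, with 10 elements each of 13 and 15 tested. Ptch1, Pdzrn3 and Meis1 had 8 each, of 10, 11 and 14 tested. Tox3 and Tle1 had 7 of 8, with the strongest Tox3 element rising from 24.5 ± 1.32 to 2188 ± 302 (log2 fold change 6.42). Around Nr2f2 and Xylt1 7 of 10 rose. For decreases, Sp5 had 5 of 5, C77080 and Tfap2c had 5 of 8 each, Ddit4 had 5 of 11 and Cdh1 had 4 of 6.

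Elements that opened lay far from promoters. Of the higher elements, 1.28% were promoters, 47.6% were intronic and 48.4% intergenic, with a median distance of 53.9 kb to the nearest TSS and 86.8% beyond 10 kb. Among the lower ones 7.18% were promoters, 39.5% intronic and 41.3% intergenic, at a median of 14.5 kb and with 59.1% beyond 10 kb. All tested elements had 23.3% promoters, a median of 5.76 kb and 42.7% beyond 10 kb. Read the other way, 0.758% of 7258 tested promoters were higher and 2.38% lower, against 19.8 and 9.21% of 10350 intronic and 23.6 and 11.3% of 8823 intergenic elements.

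Base composition moved with the direction of change. The median GC content was 46.0% in higher, 52.4% in lower and 53.8% in all tested elements. Below 45% GC, 58.4% of 2991 tested elements were higher and 4.71% lower. From 45 to 50% these were 27.9 and 9.54%, and from 50 to 55% they were 8.73 and 11.2%. At 55 to 60% GC 1.28% were higher and 8.34% lower, and above that 0.031 and 2.35% of 6461. The correction given above would also remove a real change shared by elements of similar GC content. It therefore does not show the part of GC content in the calls, which was not tested in another way.

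**Figure D3:**
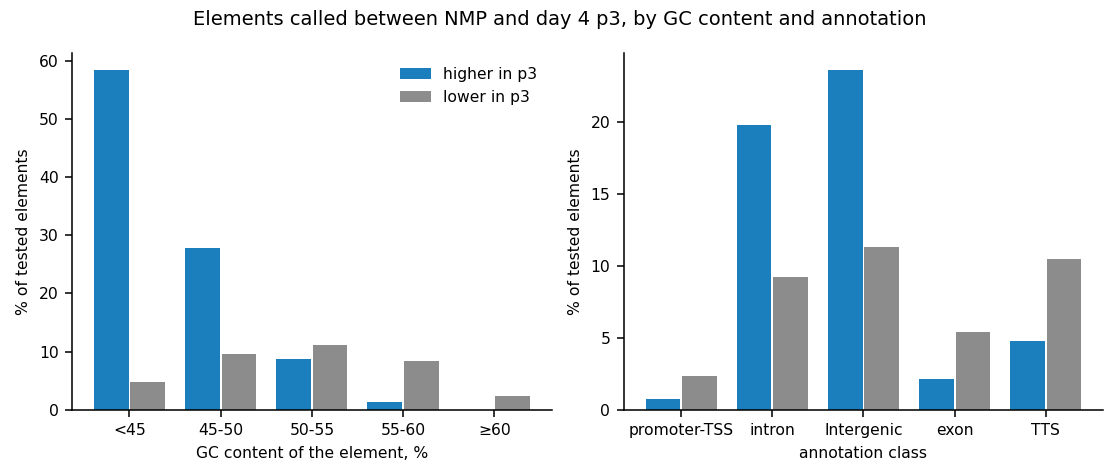
Share of tested elements called higher or lower in p3, by GC content and by annotation class.

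Short motifs were counted in the middle 200 bases of each element, on both strands, as exact letters. Because GC content differed between the sets, the shares of the main motifs are also given for elements of 45 to 50% GC. The SOX motif AACAATG was in 9.68% of higher, 2.07% of lower and 2.86% of all tested elements (8.91, 2.67 and 4.92% in that GC range). The FOX motif TGTTTAC was in 5.11, 1.99 and 2.29% (5.31, 2.84 and 4.03%). Both were more frequent in elements that opened, also within the GC range. RFX letters, GTTGCCATG, were in 1.18% of higher, 0.083% of lower and 0.498% of tested elements (0.914, 0 and 0.462%). The TCF/LEF motif CTTTGAA was in 6.17% of higher and 5.93% of lower elements, against 3.53% of those tested, but within the GC range in 5.6, 9.68 and 5.85%. AP-1 (TGACTCA) was in 3.39, 6.18 and 2.9% (2.97, 6.01 and 4%), and T-box (AGGTGTGA) in 0.302, 1.33 and 0.514% (0.343, 1.17 and 0.51%). These 3 were more frequent in elements that closed, TCF/LEF within the GC range alone. The same held for the POU octamer (ATGCAAA), at 4.46, 4.48 and 2.97%, and at 3.6, 7.35 and 4.89% within the range. T-box rested on 13 higher and 32 lower elements, and RFX on 51 and 2.

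For other motifs the shares depended on the GC range or rested on few matches, as those of T-box and RFX also did. KLF/SP letters, GGGCGGG, were in 1.74% of higher, 9.34% of lower and 15.9% of tested elements, but within the GC range in 2.17, 3.01 and 3.7%. The homeodomain core TAATTA was in 6.69, 3.2 and 2.99%, and within the range in 5.6, 6.18 and 5.24%. The CDX motif TTTATGG was in 3.16, 2.41 and 1.62% (2.68, 2.5 and 2.45% within the range). The NKX2 motif CACTTAA was in 2.53, 1.87 and 1.52%, but its order was the opposite within the range, at 2.28, 3.01 and 2.41%. GLI letters, GGGTGGTC, were in 35 higher (0.812%), 15 lower (0.622%) and 240 tested elements (0.771%), and within the range in 0.742, 0.167 and 0.574%. AGGTCA followed by itself 5 bases on, the spacing of RA receptor repeats, was in 1 higher element and 4 tested ones. The order of higher and lower shares was the same in the middle 100 bases for 14 of 16 motifs.

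The middle 200 bases of elements that carry the results are given on the plus strand of GRCm38, with motif letters in capitals. They are centered on the element and not on a summit. The Cdx2 and T elements are shown for the NMP state, with a TCF/LEF match (CTTTGAA) and an E-box (CAGCTG, in 13.6% of tested elements) at Cdx2, and with the reverse complement of the CDX letters (CCATAAA) in the other element. The Rarb element is shown as the strongest of the RA pathway, with GTAAACA (FOX, reverse complement) and CATTGTT (SOX, reverse complement) overlapping by 2 letters. The Nkx6-1 element is shown for the ventral genes, with TTTATGG (CDX) and TTCAAAG (TCF/LEF, reverse complement). The Pdgfrl element is shown as the largest decrease, with TTCAAAG. These were picked among 7 windows with a match. Of 16 windows read, 9 held none of the motifs, among them those of Nkx2-9, Foxa2, Ptch1 and Sox2. A match is a description of letters and not of binding.
Cdx2 chr5:147309303-147309502: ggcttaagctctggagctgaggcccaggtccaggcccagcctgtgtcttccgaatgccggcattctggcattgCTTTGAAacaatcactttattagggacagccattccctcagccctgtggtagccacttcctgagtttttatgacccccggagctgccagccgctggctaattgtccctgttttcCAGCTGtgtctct
T chr17:8414747-8414946: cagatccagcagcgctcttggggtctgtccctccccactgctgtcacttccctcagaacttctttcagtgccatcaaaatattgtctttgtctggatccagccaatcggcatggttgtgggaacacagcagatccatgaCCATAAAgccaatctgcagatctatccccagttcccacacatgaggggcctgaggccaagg
Rarb chr14:16733477-16733676: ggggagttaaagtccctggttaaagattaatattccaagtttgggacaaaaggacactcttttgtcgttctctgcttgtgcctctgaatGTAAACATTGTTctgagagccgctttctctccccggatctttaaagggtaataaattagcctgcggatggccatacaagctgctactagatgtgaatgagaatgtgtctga
Nkx6-1 chr5:101297420-101297619: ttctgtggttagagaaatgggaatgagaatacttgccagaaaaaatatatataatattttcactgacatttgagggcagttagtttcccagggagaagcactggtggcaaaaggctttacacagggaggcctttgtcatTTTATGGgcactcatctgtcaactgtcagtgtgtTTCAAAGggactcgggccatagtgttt
Pdgfrl chr8:40938770-40938969: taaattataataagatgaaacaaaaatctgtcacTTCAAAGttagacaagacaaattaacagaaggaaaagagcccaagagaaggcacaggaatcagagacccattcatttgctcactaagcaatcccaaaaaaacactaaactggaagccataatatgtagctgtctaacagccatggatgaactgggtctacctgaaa

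Between 100 and 500 nM SAG within day 4 p3, limma called 0 of 29283 tested elements (0%). The lowest adjusted p was 0.71, and 1066 elements (3.64%) had p under 0.05. With a replicate block by title numbers, 33 elements had an adjusted p under 0.01, none of them past the fold threshold. With voom on the recovered reads 0 were called and 1163 had p under 0.05. Log2 fold changes of 500 over 100 nM lay between -0.40 and 0.60 for the central 95% of elements. With 3 samples against 2, this does not show that the concentrations act alike. Leaving out replicate 3 at 100 nM gave 6 calls, all higher at 500 nM.

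Between p3 and pMN at day 4, 370 of 29636 tested elements were called (1.25%), of which 53 were higher in p3 (0.179%) and 317 lower (1.07%). The 53 became 30 without replicate 3 of p3 at 500 nM, 74 without replicate 3 of pMN at 500 nM and 25 with VST folds. The p3 samples here are those of the comparison with NMP. The strongest increase was in intron 11 of Kcnq1, near 4933417O13Rik, with 465 ± 192 counts in p3, 34.3 ± 22 in pMN and 3.46 in NMP (log2 fold change over pMN 3.72). Next were elements near Gm4668 (3.17), Tango6 (3.10) and Frmd4b (3.08). The lower elements were led by those near Triml1 (-3.99) and Dnajc24 (-3.86). No element of the lists was among the higher ones. Lower were 7 of 93 intermediate and dorsal elements, near Zic1 (-2.59), Olig2 (-2.55), Olig3 (-2.51), Irx3 (-2.51), Olig1 (-2.46), Dbx2 (-2.32) and Dbx1 (-2.23). In the Hedgehog pathway 3 of 55 were lower, near Boc (-2.60), Gli3 (-2.22) and Gas1 (-2.09), and among ventral genes 2 of 91, 65.9 kb from Foxa2 (-2.29) and 232.4 kb from Nkx6-1 (-2.0). None of these lower list elements was tested between NMP and p3, so they are other elements than those named above for the same genes. The Foxa2 element named above, 78.2 kb from the TSS, read 1454 ± 194 in p3 and 1171 ± 233 in pMN and was not called (log2 fold change 0.31, adjusted p = 0.082).

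Fewer calls between p3 and pMN fell on the other lists. None of 45 NMP and 123 pan-neural elements was called, against 1.25% of all tested elements. The element annotated as the Hoxd4 promoter was the 1 Hox element of 55 that was called, at 194 ± 28.5 in pMN and 43 ± 19.1 in p3 (log2 fold change -2.15, adjusted p = 3e-06). Its NMP level was 352 ± 57.3. The element on the Hoxd4 body was not called (-0.29, adjusted p = 0.057). Other Hox elements were lower in p3 by less than the threshold, such as those of Hoxb4 (-1.04, adjusted p = 2.1e-07), Hoxb9 (-0.92, 2.7e-05) and Hoxb7 (-0.86, 4.8e-06). Elements of Hoxc10 (0.73, 0.0011) and Hoxa10 (0.61, 0.0029) were higher. The median log2 fold change of p3 over pMN was -0.45 within the Hoxb cluster and -0.13 within Hoxd, but 0.25 within Hoxa and 0.18 within Hoxc. The FOX motif was in 8 of the 53 elements that were higher in p3 than in pMN (15.1%), in 7 of the 317 lower ones (2.21%) and in 2.34% of those tested, and was not recounted in the changed sets above. The CDX motif was in 18 of the 317 lower elements (5.68%), in none of the higher ones and in 1.87% of those tested. Other motifs also exceeded their share of tested elements. Homeodomain letters were in 7.57% of the lower elements (3.48% of those tested) and SOX in 6.94% (3.84%). TCF/LEF was in 11.3% of higher and 7.26% of lower ones (3.62%). Shares within a GC range were not counted for this comparison.

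The elements called between NMP and p3 were followed into other sorted groups. They were chosen on the NMP and p3 samples, so their levels in those are fixed by the choice. Elements that were higher in p3 had a median of 290 counts in day 4 pMN at 100 nM, 272 in p2 at 100 nM, 270 in p0-1 without SAG and 217 in p0-1 at 10 nM, against 258 in p3 at 100 nM and 20.1 in NMP. Elements that were lower had medians of 53.4, 57.1, 56.8 and 66.7 in the same groups, against 54.3 and 359. On day 5 p3 reached 343 and 34.9 at 100 nM, and on day 6 326 and 29.2. The p0-1 cells of day 6 without SAG stood at 236 and 36. In every day 4 group, with and without SAG, the first median lay between 217 and 297 and the second between 51 and 66.7.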

How the data were processed

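The deposited values were VST (log2) values that the authors made with DESeq2 from featureCounts over consensus MACS elements (nf-core/atacseq 1.2.0, mm10, HOMER annotation). VST was inverted to normalized counts, and whole reads, within a tolerance of 0.01, came back for 100% of values. Fits used limma 3.58.1 (R 4.3.3, variance trend, two-sided). Scripts used Python 3.11.15, pandas 2.3.3, numpy 2.4.6, scipy 1.17.1, pysam 0.24.0 and matplotlib 3.10.9. Elements went to the gene annotated as nearest (276 of 282 list genes), or, for 6 others such as Nkx2-2, by RefSeq gene body with 1 kb on each side, a rule added after the files were seen. No tested element was found for 11 genes. The named element of a gene is its strongest tested one. Members and lists were chosen with earlier results of these data known. Alternatives were other filters, folds, scalings, GC correction over 20 bins, voom, replicate blocks and leaving out samples. Scaling to total reads and adjusted p under 0.05 were added after seeing the data. Gene starts and bodies come from RefSeq, and sequences from GRCm38. Results for some genes are not reported here.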

Additional observations from a re-analysis of the deposited data

Results flagged for a closer look

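Single p3 samples stood apart at 6 of 133 sets of 5 values examined, where chance gives about 5%. The value is the gap to the nearest sample over the full range, with 0.71 as the critical value. Replicate 2 at 100 nM was low at the Nkx2-2 promoter (2260 against 2740 to 2927, gap 0.72) and high near Klf5 (68.3 against 26.2 to 35.5, gap 0.78). Replicate 1 at 100 nM was high at the Hoxa2 promoter (2017 against 1540 to 1601, gap 0.87) and near Mir146b (14.1 against 3 to 3.94, gap 0.92), and low near Ppp1r2-ps9 (76.7 against 229 to 263, gap 0.82). Replicate 1 at 500 nM was low in Sox17 (436 against 612 to 654, gap 0.81). The cause was not tested.

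An element annotated as the Hoxd4 promoter, within the RefSeq span of Hoxd3, changed between NMP and p3 by -3.0 in log2, and p3 stood below pMN by -2.15 in the direct comparison of p3 with pMN. The element on the Hoxd4 body was not called in either comparison (-0.27 and -0.29).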

How the results depend on the processing

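Of the 131 elements followed through the alternatives, most of them named above, 117 were called. Of these, 96 were called in every alternative that tested them and 114 with any 1 sample left out. The Lin28b value changed sign to -2.09 with the GC correction, and to -2.09 in the replicate block with GC correction. Without the filter on the mean, 33317 elements were called between NMP and p3 and 2201 between pMN and p3. With a log2 fold change threshold of 1 these were 13907 and 2359.

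Leaving out each replicate in turn gave 6474 to 7100 calls between NMP and p3, 0 to 6 between SAG concentrations and 309 to 422 between pMN and p3. With 1 sample in a group, it was assumed to vary like the other group.

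Replicate blocks by number gave 6718, 0 and 370 calls (6718 also by description numbers), and 6129 for NMP against p3 with the GC correction. Deviations from the group means of NMP and p3 samples with the same number correlated at 0.34, 0.17 and 0.47 (100 nM) and -0.05 and 0.03 (500 nM), against -0.38 to 0.09 for other pairs at 100 nM. For pMN and p3 samples with the same number they were 0.14, 0.44 and 0.54 at 100 nM and 0.69 and 0.63 at 500 nM, and -0.01 to 0.67 across concentrations. Between pMN at 100 and at 500 nM they were 0.76, 0.76 and 0.79. With the block 7788 elements had an adjusted p under 0.01 between pMN and p3, against 5298 without it, and the same 370 were called. Title and description numbers disagree for 15 samples of the series, here for replicate 3 of p3 at 500 nM. The paper describes sorting several cell types from 1 dish, but the labels do not tie numbers to dishes, and the cause was not tested.

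Groups held 2 or 3 samples of 1 line, and day, medium, RA, SAG and sort differ together between NMP and p3. The share of calls in each direction depended on scaling, GC correction and filter. Nearest-TSS assignment does not show which gene an element acts on. Accessibility was measured and not expression or binding. Normalized totals and base composition differed between the groups, and their part in the changes was not tested. The markers of the NMP sort were not found in the labels.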
